A study of Mus musculus with 4 samples.

Results

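Metalloproteinases are zinc enzymes that cut proteins outside the cell or at its surface. Matrix metalloproteinases (MMPs) digest collagen, gelatin and other substrates, ADAMs release the outer part of membrane proteins, ADAMTS enzymes process matrix proteoglycans and procollagens, and ADAMTS-like (ADAMTSL) proteins keep the ancillary domains without the protease. TIMPs and the membrane-anchored glycoprotein Reck restrain metalloproteinases, while Slpi, a secreted inhibitor kept in neutrophil granules, blocks the serine proteases neutrophil elastase and cathepsin G. In neutrophils, collagenase (Mmp8) is stored mainly in specific granules and gelatinase B (Mmp9) mainly in gelatinase granules, which form late in maturation in the marrow.

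The genes of these families were taken by name from the array annotation: Mmp, Adam, Adamts or Adamtsl followed by a number, Timp1 to Timp4, Reck and Slpi. The names matched 80 of 27632 genes, on 135 of 41174 probes, and comprised 21 MMPs, 30 ADAMs, 18 ADAMTSs, 5 ADAMTSLs and 6 inhibitors. Immature granulocytes had been sorted from bone marrow of male C57BL/6 mice, 2 samples wild type (WT) and 2 samples lacking the microRNA miR-223 (KO), and the RNA of each sample was hybridised to a 1-colour array. The labels give no age, no sorting markers and no statement of how the miR-223 allele was made or whether replicates are different animals. Every p-value therefore reflects only how far these samples scatter, and part or all of that scatter may be technical.

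A level is given throughout as the processed signal of a probe divided by the 75th percentile of the signal on the same array, a difference as KO minus WT on the log2 scale with its standard error (SE, n = 2 arrays per genotype), and levels of different genes are not compared because each probe has its own brightness. Between 59.6% and 62.9% of spots per array were well above background, 0 were saturated, and the 75th percentile was 314 or 310 units on the WT arrays, 361 or 422 on the KO arrays. All 14 of the granulocyte precursor markers on the array (such as Mpo, Elane, Ltf, Camp and Ngp) were well above background on every array, with summed levels of 6633 and 7191 in WT and 6918 and 6141 in KO. Markers of other cell types were read as well. All 10 monocyte markers were above background and 9 of them were higher on both KO arrays than on both WT arrays (background 28% of all genes tested), with summed levels of 60.2 and 58.2 in WT and 103 and 89.1 in KO, and 0 of the 10 were at background. The 5 erythroid markers tested were all lower on both KO arrays (background 30.5%; sums 46.2 and 44.9 in WT, 33.8 and 26.0 in KO). Summed levels were also higher on both KO arrays for eosinophil markers (11.9 and 9.99 in WT, 17.4 and 16.1 in KO), stem and progenitor markers (7.69 and 7.50, then 13.9 and 10.6), B lineage markers (5.62 and 5.97, then 8.34 and 6.82), macrophage markers (13.3 and 14.9, then 20.1 and 18.0), platelet markers (0.848 and 0.972, then 1.64 and 2.22) and endothelial markers (0.351 and 0.331, then 0.616 and 0.480). They were lower on both KO arrays for T cell markers (0.997 and 1.04, then 0.556 and 0.460), stromal markers (0.646 and 0.586, then 0.471 and 0.475) and basophil and mast cell markers (0.973 and 1.27, then 0.843 and 0.948). Each sum is set mostly by its brightest probes and need not follow most of its genes. Of the B lineage markers tested, 1 had a positive and 5 a negative difference, against the direction of the sum. Macrophage markers had 5 positive and 5 negative differences, and T cell markers 2 and 3. In sorted populations, fewer cells of a type and less RNA per cell cannot be told apart. The part of these cells in the results on the members was not tested.

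The deleted microRNA is shown for its seed, bases 2 to 8 in capitals, which pairs with target transcripts. The sequence is from RefSeq, GRCm38.p6, chrX:96242884-96242905, plus strand.
miR-223-3p: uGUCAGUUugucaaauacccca
The 6-base match ACTGAC occurred in 1 of the 135 member probes, a probe of Adamts7, against 1.41% of all 41174 probes, and the 8-base match AACTGACA in 0 of 135 against 0.136%. A probe covers 60 bases of a transcript, so sites elsewhere in the transcripts were not searched here. Adamts7 has 2 probes, and which of them holds the match is not given here. The Adamts7 probe used in the test had levels of 0.022 and 0.033 in WT and 0.035 and 0.024 in KO, and the genotypes overlapped.

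Of the 80 genes, 39 had a probe that the scanner software marked well above background on 2 or more arrays (48.75%, against 61.4% of all 27632 genes) and were tested, 32 of them on all 4 arrays. A probe was above background on 1 array for 4 genes (Adam12, Adam25, Adam26a and Adamts3) and on 0 arrays for 37. The 39 comprised 9 MMPs, 14 ADAMs, 8 ADAMTSs, 3 ADAMTSLs and 5 inhibitors. Signals of many were close to the floor: 18 of the 39 stayed under a level of 0.1 on all 4 arrays, and the dimmest spots that passed the scanner's background test lay at 0.014 to 0.023. In contrast, 10 genes exceeded a level of 1 on all 4 arrays: Slpi, Mmp8, Mmp9, Mmp25, Adam8, Adam9, Adam15, Adam17, Timp2 and Reck.

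**Figure D1:**
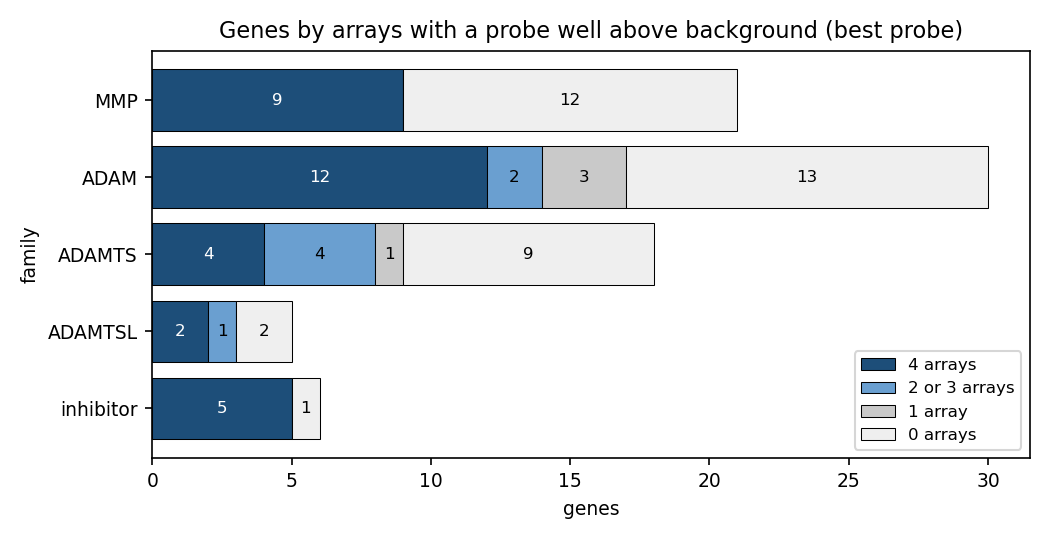
Number of genes in each family (bar length) by the number of arrays on which the best probe was well above background. Each of the 9 MMPs and 5 inhibitors that were detected was detected on all 4 arrays, whereas 4 of the 8 ADAMTS genes tested passed on 2 or 3 arrays.

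No member passed an adjusted p of 0.05 in limma (0 of 39, background 0% of 16979 genes tested), and the smallest adjusted p over all genes, 0.084, was also the smallest over members (Adamtsl5, whose tested probe was not above background in KO). At an unadjusted p under 0.05, 5 of 39 members were higher in KO (12.8%, background 11.8%) and 6 were lower (15.4%, background 12%), so the shares were near those of all genes. Adam21, Adam33 and Adamtsl5 entered the test through 1 genotype alone, and Adam21 and Adamtsl5 are in these counts. A fit that lets the expected spread vary with signal (the intensity trend) called 3 members higher (7.69%, background 5.45%), Slpi, Adam15 and Adam19, and 1 lower (2.56%, background 4.13%), Adam10. Both KO arrays lay above both WT arrays for 12 of 39 members (30.8%, background 28%) and below them for 8 (20.5%, background 30.5%), and the genotypes overlapped for 19. This split depended on the background correction: it was 8 above and 21 below (all genes 24.3% and 43.1%) with normexp fitted without control spots, and 7 above and 25 below (all genes 23.7% and 38.5%) with normexp on all spots. With the authors' deposited values it was 16 above and 7 below (all genes 33.6% and 18.8%). The median difference over the 39 members was 0.05 and over all genes −0.02, and the median size of a difference was 0.27 in members and 0.20 in all genes. Within a genotype, the median gap between the 2 arrays over members was 0.17 in WT and 0.19 in KO. With 2 arrays per genotype the smallest p of an exact permutation test is 0.33, so no single gene could be tested that way.

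**Figure D2:**
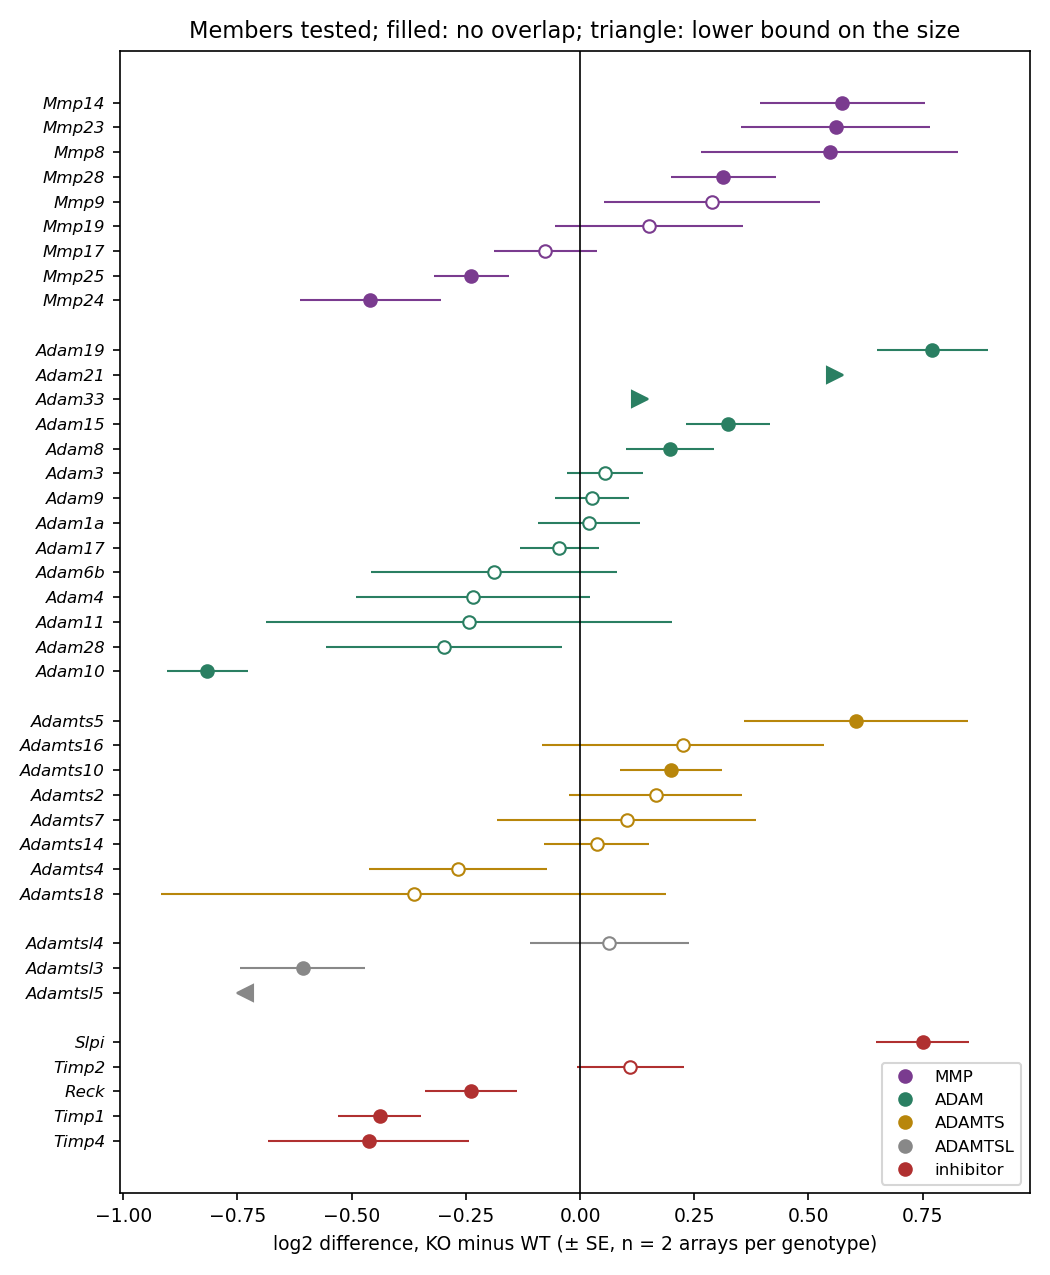
Log2 difference between KO and WT (x axis, ± SE, n = 2 arrays per genotype) for the 39 members tested, grouped by family; filled points mark genes whose genotypes did not overlap. Triangles for Adam21, Adam33 and Adamtsl5 are approximate lower bounds on the size, since 1 genotype was not above background. Slpi (0.75) and Adam19 (0.77) lie right of 0 and Adam10 (−0.82) left of it.

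Among the granule members, Slpi was the one whose difference passed a test in any fit. Its level was 129.5 and 116 on the WT arrays and 199.9 and 213 on the KO arrays. Both KO arrays stood clear of both WT arrays, and the gap between genotypes was several times the gap within either. The difference was 0.75 ± 0.10 (1.68-fold), with an adjusted p of 0.090 in limma and 0.0087 with the intensity trend. Leaving out each array in turn gave adjusted p above 0.05 throughout, and the difference stayed between 0.67 and 0.83. Over all settings run the adjusted p ranged from 0.0067 to 0.487. The probe lies at chr2:164179849-164179908 (mm9), and a second Slpi probe, about 5 kilobases away at chr2:164185063-164185122, was not above background on any array.

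Mmp8, the neutrophil collagenase, had levels of 11.3 and 12.3 in WT and 13.3 and 22.2 in KO (probe at chr9:7568238-7568297, mm9). Both KO arrays were above both WT arrays, but KO replicate 2 was far above KO replicate 1. The difference was 0.55 ± 0.28 with an adjusted p of 0.32 (limma; 0.17 with the intensity trend) and a 95% interval from −0.25 to 1.34, and without KO replicate 2 it was 0.18.

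Mmp9, gelatinase B, the enzyme after which gelatinase granules are named, had levels of 17.5 and 18.9 in WT and 18.0 and 27.4 in KO (probe at chr2:164780303-164780362, mm9). KO replicate 1 lay between the WT arrays, so the genotypes overlapped. The difference was 0.29 ± 0.24 (adjusted p 0.50, limma; 95% interval −0.38 to 0.96), and without KO replicate 2 it was −0.016. A second Mmp9 probe read 11.2 and 10.8 in WT and 12.3 and 15.3 in KO. It was averaged over 10 spots per array, where the first probe had 1 spot. On the second probe both KO arrays were above both WT arrays, and its difference of 0.32 was close to that of the first probe. The value without KO replicate 2 given above is for the first probe.

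Mmp25 (leukolysin, an MMP tethered to the neutrophil membrane by a lipid anchor) had levels of 3.06 and 3.08 in WT and 2.67 and 2.53 in KO. It was the granule member with the lower level in KO, and the groups did not overlap. The difference was −0.24 ± 0.08, with an adjusted p of 0.20 (limma) and 0.097 with the intensity trend. Before scaling, the Mmp25 signals were 961 and 956 units in WT and 965 and 1069 in KO, so the lower level appears only after scaling. With the authors' deposited values the difference was −0.16 (adjusted p 0.57, limma). Adam8, a surface ADAM of neutrophils that can release L-selectin, had levels of 39.2 and 39.0 in WT and 42.5 and 47.4 in KO. Both KO arrays were higher, and the difference of 0.20 ± 0.10 had an adjusted p of 0.30 (limma) and was 0.12 without KO replicate 2. The 5 granule members together had 4 positive and 1 negative difference and a median of 0.29. For 3 of the 5 both KO arrays were above both WT arrays and for 1 of the 5 below. Over all genes tested the shares were 28% and 30.5%, and 5 genes are too few to set against them.

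**Figure D3:**
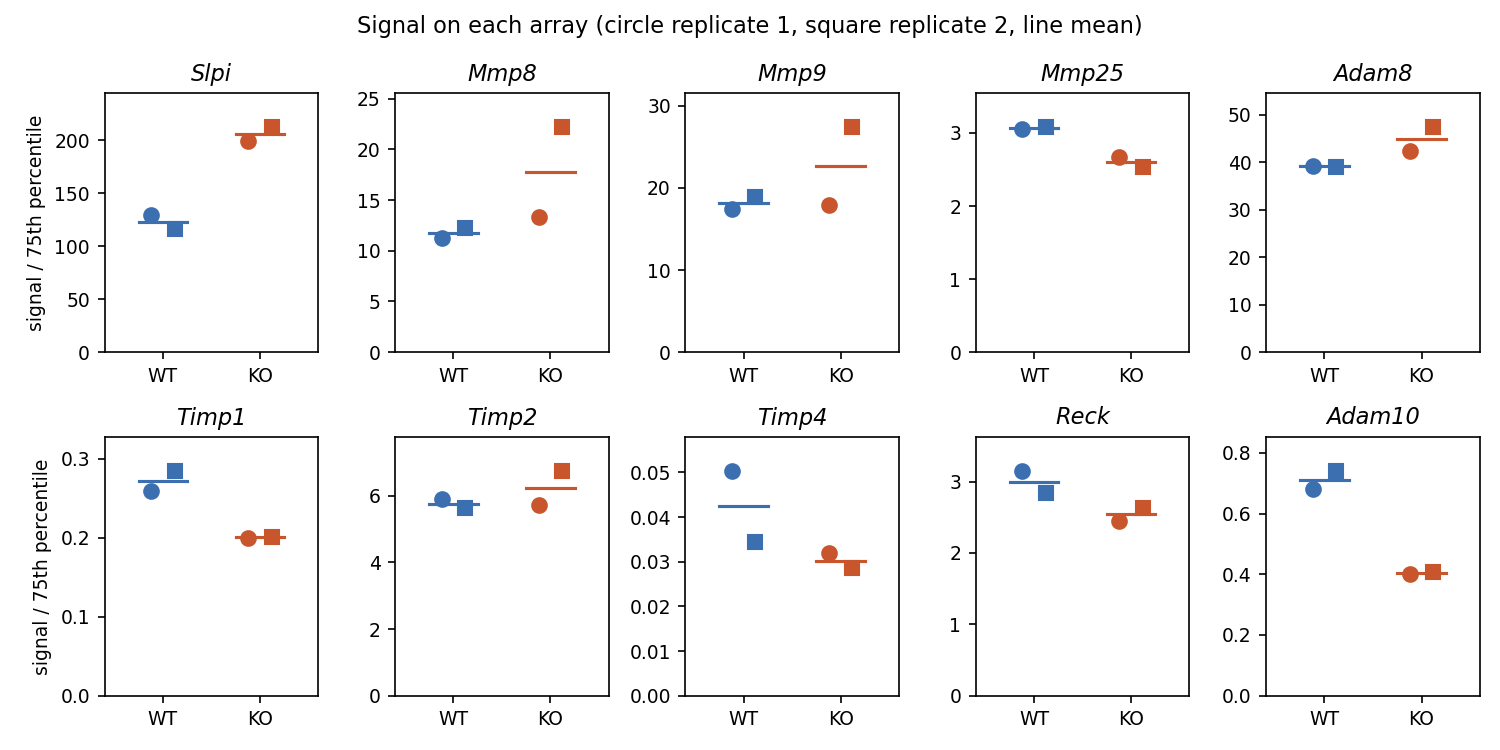
Level on each array (y axis, signal divided by the array's 75th percentile, from 0, each panel on its own scale) for the granule members, the TIMPs detected, Reck and Adam10; circles are replicate 1, squares replicate 2 and lines genotype means. Slpi is higher and Adam10 lower on both KO arrays, and the means of Mmp8 and Mmp9 in KO are raised by replicate 2.

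The inhibitors of metalloproteinases had no common direction. Timp1, a secreted inhibitor of most MMPs, had levels of 0.259 and 0.285 in WT and 0.200 and 0.201 in KO. Both KO arrays were below WT and nearly equal. The difference was −0.44 ± 0.09, with an adjusted p of 0.12 in limma and 0.091 with the intensity trend. A normexp background correction fitted without control spots gave −0.39 and an adjusted p of 0.040, the lowest of a range up to 0.487. A second Timp1 probe was at background on all 4 arrays.

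Timp2, which both inhibits MMPs and helps membrane-type MMPs activate pro-Mmp2, had levels of 5.90 and 5.63 in WT and 5.74 and 6.76 in KO. Its genotypes overlapped, and the difference of 0.11 ± 0.12 (95% interval −0.22 to 0.44) was −0.0076 without KO replicate 2. Reck had levels of 3.15 and 2.84 in WT and 2.45 and 2.63 in KO. Both KO arrays were lower, and the difference of −0.24 ± 0.10 had an adjusted p of 0.25 (limma). Before scaling, the Reck signals were 991 and 883 units in WT and 887 and 1108 in KO. Timp4 was dim, at 0.050 and 0.034 in WT and 0.032 and 0.029 in KO, with a difference of −0.46 ± 0.22 (adjusted p 0.30) that was −0.19 without WT replicate 1 and −0.74 without WT replicate 2. Timp3, a matrix-bound inhibitor of MMPs and of ADAM17, was not above background on any array.

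Adam10, the sheddase that cleaves Notch receptors and many other surface proteins, had levels of 0.682 and 0.742 in WT and 0.400 and 0.407 in KO. Its gap between genotypes was larger than that within either. The difference was −0.82 ± 0.09 (a level in KO 0.568 times that in WT), with an adjusted p of 0.086 in limma, 0.012 with the intensity trend and 0.016 with normexp fitted without control spots, where the difference was −0.51. Over the settings run the adjusted p ranged from 0.012 to 0.487. It rested on 1 probe, at chr9:70625964-70626022 (mm9).

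Adam17, the related sheddase that releases tumour necrosis factor and L-selectin, had levels of 2.61 and 2.45 in WT and 2.40 and 2.50 in KO. Its genotypes overlapped, with a difference of −0.05 ± 0.09 and a 95% interval from −0.29 to 0.20. A second Adam17 probe had a difference of 0.08. Adam9, another sheddase, also overlapped, with a difference of 0.03 ± 0.08 and an interval from −0.20 to 0.25. The difference between the responses of Adam10 and Adam17 was not tested.

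Adam15, an ADAM whose disintegrin domain binds integrins, had levels of 6.98 and 7.63 in WT and 8.99 and 9.29 in KO. Both KO arrays were higher. The difference was 0.32 ± 0.09, with an adjusted p of 0.16 in limma and 0.048 with the intensity trend, and a second probe of the gene gave 0.24. Adam19, a sheddase of neuregulin, had levels of 0.102 and 0.122 in WT and 0.195 and 0.186 in KO, again without overlap. Its difference was 0.77 ± 0.12, with an adjusted p of 0.096 in limma and 0.042 with the intensity trend. The 3 Adam19 probes disagreed in size: a dimmer probe gave 1.37, while the probe farthest upstream on the plus strand, on which RefSeq places the gene, gave −0.04. Over the settings run the adjusted p of Adam15 ranged from 0.048 to 0.487 and that of Adam19 from 0.042 to 0.644. With normexp fitted on all spots the difference was −0.45.

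Of the 12 ADAMs listed as expressed in somatic tissues, 9 were tested: Adam8, Adam9, Adam10, Adam11, Adam15, Adam17, Adam19, Adam28 and Adam33. Adam12, Adam22 and Adam23 were not. Of the 18 other ADAMs, many of which are known from testis, 5 were tested: Adam1a, Adam3, Adam4, Adam6b and Adam21. Adam21 was above background on both KO arrays and neither WT array, with levels of 0.018 and 0.023 in WT and 0.040 and 0.029 in KO. Its approximate bound was 1.47-fold higher in KO (adjusted p 0.17, limma). Adam33 was likewise above background on the KO arrays alone, with an approximate bound of 1.1-fold. These bounds set the KO mean against, on each WT array, the higher of the probe's own signal and the lowest signal well above background. They are not strict, because some brighter spots failed the background test. The tested Adamts16 probe, for example, failed it on WT replicate 1 at a level of 0.031. The genotypes overlapped for Adam1a, Adam3, Adam4, Adam6b, Adam11 and Adam28, whose differences ran from −0.30 to 0.05.

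Besides Mmp8, Mmp9 and Mmp25, 6 MMPs were tested, and all 6 were dim. Mmp14, the membrane-type MMP that activates pro-Mmp2, had levels of 0.040 and 0.052 in WT and 0.062 and 0.075 in KO. Its groups did not overlap, with a difference of 0.57 ± 0.18 and an adjusted p of 0.18 (limma), but a second probe gave −0.02. Mmp24, a membrane-type MMP, had levels of 0.103 and 0.106 in WT and 0.086 and 0.067 in KO, a difference of −0.46 ± 0.16 (adjusted p 0.20) that was −0.27 without KO replicate 2. Mmp28 (epilysin) had levels of 0.055 and 0.064 in WT and 0.074 and 0.073 in KO, a difference of 0.31 ± 0.12 (adjusted p 0.22) that was 0.20 without WT replicate 1. Mmp23 differed by 0.56 ± 0.21 without overlap, and Mmp17 and Mmp19 overlapped. Of the membrane-type MMPs Mmp15 and Mmp16 were not above background, nor were Mmp20 and Mmp21 of the remaining MMPs, and 0 of the 5 stromelysin, matrilysin and macrophage elastase genes (Mmp3, Mmp7, Mmp10, Mmp11 and Mmp12) were. Mmp2 (gelatinase A), Mmp13 and Mmp1a were not either, so Mmp8 and Mmp9 were the 2 gelatinase or collagenase genes detected of the 5 on the array.

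Of the MMP genes with probes near Mmp8 on chromosome 9, none but Mmp8 itself was detected on these arrays. The probes of 8 MMP genes lie in a cluster at chr9:7282762-7697700 (mm9), in the order Mmp13, Mmp12, Mmp3, Mmp1a, Mmp10, Mmp8, Mmp20 and Mmp7. MMP genes without a probe are not in this order, and Mmp1b and Mmp27 had none under those names. The processed signal of Mmp8 was 3545 to 9365 units, while the probes of the 7 others read 1.38 to 5.44 units and were not above background on any array. RefSeq promoters (GRCm38.p6, 250 bases before to 50 after each start) were matched for all 8 and for 49 of the 80 members. The AP-1 motif TGAGTCA, searched on both strands (its reverse complement is TGACTCA), was present for 6 of the 8 genes, all of them genes not above background here, and was not found for Mmp8 or Mmp20. Among all 32851 promoters 5.20% held the motif, and among the 54 promoters of the 49 matched members 9 did. Outside the cluster the motif was in a promoter of Adam19, which was above background on all 4 arrays. It was also in promoters of Adam1b and Adam29, which were not above background. Mmp9 had no matched promoter and was not searched. The 6 stretches are shown because the motif sits in a similar place in each; it is in capitals and starts 35 to 73 bases before the start, each stretch being 30 bases of the plus strand of chromosome 9.
Mmp13: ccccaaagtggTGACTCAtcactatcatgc
Mmp12: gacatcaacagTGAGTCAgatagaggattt
Mmp3: ggaagcaattaTGAGTCAgttttcgggtga
Mmp1a: gttgtcaaccaTGAGTCAcatagcctctgg
Mmp10: tagcacccatgTGAGTCAtgcttagtgacc
Mmp7: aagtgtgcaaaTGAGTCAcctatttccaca
They lie at chr9:7272468-7272497, chr9:7347319-7347348, chr9:7445765-7445794, chr9:7464057-7464086, chr9:7502268-7502297 and chr9:7692016-7692045 in the same order. Mmp12 and Mmp7 have 2 starts each, and the motif lies within the searched window of 1 of them. A match describes these letters in this window and does not show that a factor binds there.

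Of the 18 ADAMTS genes 10 were not tested, and those tested were mostly dim. Adamts10, which acts in the assembly of fibrillin microfibrils, was the one with levels above 0.5. Its levels were 0.618 to 0.720 in WT and 0.758 to 0.773 in KO, without overlap, and the difference was 0.20 ± 0.11 (adjusted p 0.35, limma), but its other probes gave −0.12 and 0.0032. Adamts5, an aggrecan-cleaving enzyme, had levels of 0.051 and 0.076 in WT and 0.105 and 0.086 in KO and a difference of 0.60 ± 0.24 (adjusted p 0.24). The genotypes overlapped for Adamts2, Adamts4, Adamts7, Adamts14, Adamts16 and Adamts18, whose differences ran from −0.36 to 0.23. Over the 8 ADAMTS genes 6 differences were positive and 2 negative, with a median of 0.13.

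Adamtsl5, an ADAMTS-like gene, was dim. Its levels were 0.031 and 0.027 in WT and 0.013 and 0.013 in KO. Its tested probe was not well above background on the KO arrays, so its size is given only as an approximate bound. That bound was 1.66-fold higher in WT (adjusted p 0.084 in limma and 0.11 with the intensity trend). A second probe, above background on KO replicate 1 alone, gave −0.08. Adamtsl3 had levels of 0.083 and 0.075 in WT and 0.047 and 0.057 in KO, a difference of −0.61 ± 0.14 (adjusted p 0.12), while its second probe gave −0.16. Adamtsl4 overlapped.

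For 11 members several probes were above background, and the differences of the probes had the same sign in 4 of them (Adam15, Adam28, Adamtsl3 and Mmp9) and opposite signs in 7. The largest gap between probes of a gene was 1.41, in Adam19. Probes of 1 gene can report different transcript ends or isoforms, and the exon in which each lies was not determined here.

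**Figure D4:**
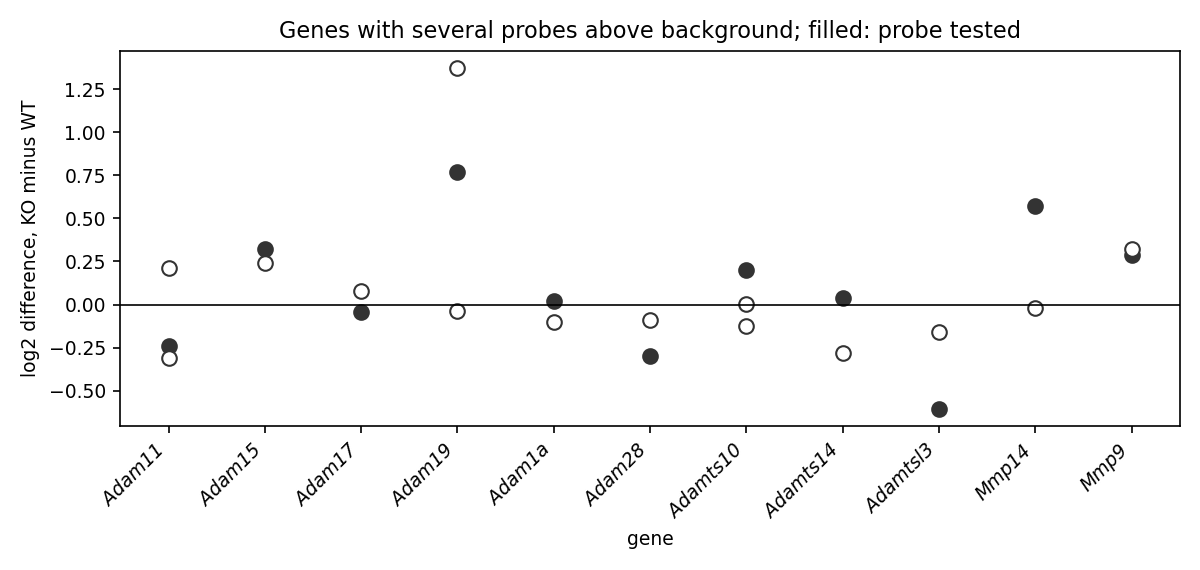
Log2 difference between KO and WT (y axis) for each probe well above background on at least 2 arrays, in the 11 members that have several; the filled point is the brightest probe, which was tested. Both Mmp9 probes lie near 0.3, and the 3 Adam19 probes span from −0.04 to 1.37.

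Enzymes that activate metalloproteinases and proteins that bind them were read from a list of 20, of which 15 were tested, with 8 positive and 7 negative differences and a median of 0.08. At an adjusted p of 0.05 in limma 0 of 15 passed, and with the intensity trend 4 were higher and 1 lower (background 5.45% and 4.13%). Those with the smallest p were the serine proteases of azurophil granules Prtn3 (0.72 ± 0.10), Ctsg (0.63 ± 0.09) and Elane (0.50 ± 0.09), and thrombospondin Thbs1 (−1.06 ± 0.22), which binds MMPs. Elastase and cathepsin G are the proteases that Slpi inhibits: Elane had levels of 34.8 and 37.6 in WT and 49.4 and 52.9 in KO, and Ctsg 264 and 248 in WT and 408 and 385 in KO. Like Slpi, both were higher on both KO arrays, with adjusted p of 0.11 and 0.091 in limma and 0.018 and 0.011 with the intensity trend. Elane, Ctsg and Prtn3 are also among the 14 granulocyte precursor markers tested, of which 8 had positive and 6 negative differences.

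Of 9 listed chaperones that carry ADAM10 or ADAM17 to the cell surface 6 were tested, with 3 positive and 3 negative differences and 0 calls in either fit. Tspan17, a tetraspanin that partners ADAM10, had a difference of −0.40 ± 0.12, Tspan33 0.23 ± 0.10, Tspan14 0.14 ± 0.08 and Rhbdf2, the iRhom that carries ADAM17, −0.14 ± 0.09. Of 18 listed surface proteins that ADAM10 or ADAM17 can shed 15 were tested, 9 positive and 6 negative with a median of 0.06. Calls at an adjusted p of 0.05 were 0 in limma and, with the intensity trend, 4 higher and 0 lower (background 5.45% and 4.13%). Icam1 (0.80 ± 0.17), Mertk (−0.80 ± 0.17), Csf1r (0.77 ± 0.18) and Vcam1 (0.47 ± 0.12) had the smallest p. Csf1r is itself among the monocyte markers, whose levels were higher in KO, and Vcam1 and Mertk are among the macrophage markers, of which 5 of 10 were higher and 5 lower. Shedding acts on proteins, which these arrays do not measure.

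Other protease inhibitors of leukocytes, 18 tested of 22 listed, had 10 positive and 8 negative differences with a median of 0.08. With limma 0 passed, and with the intensity trend 2 were higher and 3 lower (background 5.45% and 4.13%). The stefins, inhibitors of cysteine cathepsins, had the smallest p: Stfa1 had a difference of −1.46 ± 0.14, with levels of 5.77 and 4.70 in WT and 1.94 and 1.83 in KO, and Csta (annotated now as Csta1) −1.33 ± 0.16. Cystatin F, Cst7, differed by 0.45 ± 0.10 and Serpina3f, which was dim, by 0.74 ± 0.10. Slpi and these 2 stefins, which inhibit different classes of protease, had differences of opposite sign, both without overlap.

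The background correction changed several of these values. With normexp fitted without control spots Adam21 was −0.16 and Mmp28 −0.054, the opposite sign of the values above, while the differences of Slpi (0.74), Mmp8 (0.57), Adam15 and Adam10 kept their sign. With normexp fitted on all spots the signs of Adam19, Adam21, Mmp14, Mmp25, Mmp28 and Reck were opposite, Mmp25 and Reck being among the genes above a level of 1. Adam8 and Mmp9 moved to 0.60 and 0.86. A control spot on the WT replicate 1 array had a local background of 80750 units, against 45 units or less at non-control spots of the 4 arrays. The part of that spot in these changes was not tested.

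**Figure D5:**
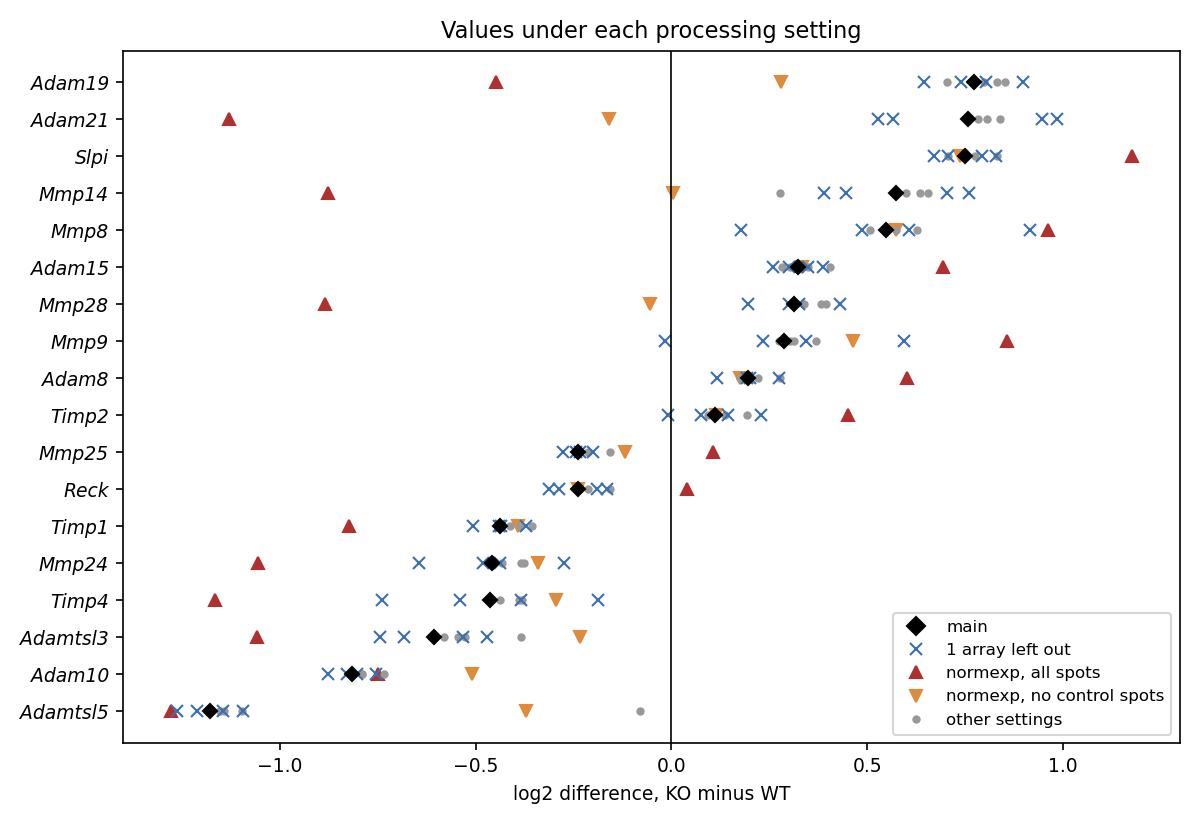
Log2 difference between KO and WT (x axis) for 18 members under the main processing (black), with 1 array left out (blue crosses), under the normexp corrections (triangles) and under the other settings (grey). Slpi, Mmp8, Adam15 and Adam8 stay right of 0 and Adam10, Timp1, Mmp24, Timp4, Adamtsl3 and Adamtsl5 left of 0 in each setting run; Adam21 and Adamtsl5 were not above background in 1 genotype, so their points are fitted values and give no size.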

How the data were processed

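Each of the 4 samples was hybridised to a 1-colour Agilent mouse array. Per the file headers, Agilent Feature Extraction 10.5.1.1 made the deposited intensity of each spot, background-subtracted and detrended but not scaled between arrays. A table of log2 values deposited by the authors served as an alternative; its columns followed log2 processed signal (r of 0.9999 or higher over 41174 probes, each median 4.68), from which its scale and centring were inferred. Log2 signals had each array's 75th percentile subtracted, spots of a probe were averaged, and the brightest probe stood for each gene, among those well above background on at least 2 arrays (16979 genes). Genotypes were compared with limma 3.58.1 in R 4.3.3 (lmFit, eBayes, Benjamini-Hochberg over all genes, prior degrees of freedom 1.83), a procedure tested on simulated data. All tested members are named, with every array's value for granule members, TIMPs, Reck and the 12 members with the smallest p; of each list up to 4 with the smallest p are named. Members and lists were chosen with earlier results of these data known. Alternatives changed the background correction, scaling, dim-probe filter, choice of probe, prior on the variance, threshold, replicate block and number of arrays. Symbols follow RefSeq GRCm38.p6; probe coordinates are on mm9, per the file headers. The number of arrays limits the precision.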

Additional observations from a re-analysis of the deposited data

How the results depend on the processing

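Of the 39 members 0 were called and 20 did not overlap (51.3%, all genes 58.6%), with a median difference of 0.05. The 20 include Adam21, Adam33 and Adamtsl5, which entered the test through 1 genotype alone. Over all genes, 0 called became 1885 with normexp fitted without control spots, 4 with quantile normalization, 61 with the authors' deposited values, 125 when genes had to be above background on all 4 arrays, 1627 with the intensity trend and 819 at an adjusted p under 0.1. Members called became 3 of 39 with that normexp fit (all genes 1885 of 16979) and 4 of 39 with the trend (all genes 1627 of 16979). With the looser threshold they became 4 of 39 (all genes 819 of 16979), among them Adamtsl5, whose tested probe was above background in WT alone. Members without overlap became 32 with normexp on all spots (82.1%, all genes 62.2%), 32 of 80 with no filter on dim probes (all genes 47.6%), and 27 to 31 when 1 array was left out (all genes 78.1% to 80.4%), where fewer arrays must be separated. The median became −0.88 with normexp on all spots and −0.15 with normexp without control spots. Signs reversed with normexp on all spots for Adam19 (−0.45), Adam21 (−1.13), Mmp14 (−0.88), Mmp25 (0.11), Mmp28 (−0.89) and Reck (0.040), and with normexp without control spots for Adam21 (−0.16) and Mmp28 (−0.054); the cause was not tested. Leaving out 1 array gave −0.016 to 0.59 for the tested Mmp9 probe and −0.0076 to 0.23 for Timp2, both lowest without KO replicate 2. Deviations of same-numbered replicates were almost uncorrelated (r = 0.039 over 16979 genes). The labels do not say whether such replicates share more than a number, and 2 pairs of arrays cannot show it. A replicate block left 0 members and 0 genes called. Members near background are limited by signal.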

Other observations

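Several members and the granule gene Ltf had their highest or lowest value on the array of KO replicate 2, a pattern chosen after its values were seen. How often other members or other genes had their extreme value on that array was not counted. With 4 arrays a gene often has its highest or lowest value on any given array, so the pattern carries no weight by itself. Adam19, Adam21, Adamts5 and Mmp23, for example, were highest on KO replicate 1. On that array Mmp8 read 22.2, Mmp9 27.4, Adam8 47.4 and Timp2 6.76, each the highest of the 4 arrays. Lactoferrin (Ltf), the marker protein of specific granules, read 650.2 there against 1087 and 1117 in WT and 1017.5 in KO replicate 1, the lowest of the 4. Camp and Ngp, which are also specific granule proteins, read 636 and 649 on KO replicate 2 and 658 and 636 on KO replicate 1. The 75th percentile of signal was also highest on that array, at 422.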
